A study of Mus musculus with 8 samples.

Results

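The nuclear genes of respiratory complex I were examined in S0 cells, the least mature erythroid precursors of the fetal liver, from WT and Vps13a/Vps13c double knockout (DKO) mouse embryos. All protein-coding genes whose symbol begins with Nduf were taken, which gave 46 of the 52636 genes in the count table. Of these, 38 encode proteins counted as subunits (Ndufa, Ndufb, Ndufc, Ndufs and Ndufv) and 8 encode assembly factors (Ndufaf), which help to build the enzyme but are not part of it. Another 5 genes with Nduf symbols are not annotated as protein-coding and were left out of the members. One of these, Ndufb1-ps, was read at 6726 ± 252 normalised counts in the WT group and 9199 ± 921 in the DKO group (mean ± SD over 4 libraries each, as for the values below), so the mouse locus that bears the name of the subunit NDUFB1 lies outside the counts given for the 46 genes.

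RNA was sequenced from lineage-negative cells that carried neither CD71 nor Ter119, sorted by FACS from E12.5 livers, in 4 WT and 4 DKO libraries. Both strains were kept on a C57BL/6J background. DKO embryos lacked Vps13c and carried, in every tissue, a Vps13a allele from which an exon had been removed with β-actin-Cre. They came from crosses of Vps13a+/-/Vps13c-/- mice, whereas the WT libraries are labelled wild type at both genes. All embryos of such a cross lack Vps13c, so embryos that are wild type at both genes came from other litters. Litter and parents thus cannot be told apart from genotype here. The labels do not say that a library is a single embryo, so p-values measure the spread between these libraries. Total counts were 42114489 to 50886469 per WT library and 36981439 to 42587815 per DKO library, and the 46 genes together took 0.772% to 0.860% of them in WT and 0.905% to 1.01% in DKO. At these levels counting error was small against the spread between libraries.

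Complex I (NADH:ubiquinone oxidoreductase) takes electrons from NADH at the tip of its matrix arm, passes them to ubiquinone at the foot of that arm and pumps protons through its membrane arm. Its core subunits have bacterial relatives and carry out the chemistry. Some of them are encoded in the nucleus and the rest in mitochondrial DNA, while the many accessory subunits, all nuclear, surround and stabilise the core. Erythroid precursors use mitochondria for heme synthesis and clear them as they mature into red cells.

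Of the 38 subunit genes, 20 were higher in DKO S0 cells, 1 was lower and 17 did not pass the test. A gene was taken to have passed when the adjusted p of edgeR's quasi-likelihood test, corrected over all 17378 genes tested, was below 0.05. Of all genes tested, 10.7% passed as higher and 10.8% as lower. The changes were small: the median log2 fold change over the subunits was 0.34, against 0.03 over all genes tested, and 35 of 38 were above 0 (52.6% of all genes). Of the 8 assembly factors, 1 was higher and 7 did not pass, with a median log2 fold change of 0.23. The libraries of the 2 groups did not overlap in 19 subunits, 18 of them higher in DKO and 1 lower, where 13.5% and 14.6% of all genes were apart in this way. Only 1 member, Ndufa4l2, changed by more than 1 on the log2 scale, a size that 8.63% of all genes passed with. DKO replicate 1 lay lower than the other DKO libraries in most members, and without it 29 subunits and 3 assembly factors passed as higher (10.8% of all genes), while without WT replicate 1, 2 or 4 there were 10 subunits and 0 assembly factors each time (4.74%, 5.63% and 5.26% of all genes). Upper-quartile scaling, which raised the median of all genes to 0.14, gave 31 and 4 (14.3% of all genes).

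The rise in subunit transcripts went together with transcript length, and most calls were not kept once length and GC content were taken into account. Complex I subunits have short mRNAs, with a median principal transcript of 921 nt. Among coding genes of all kinds, the median log2 fold change was 0.42 for the 101 with transcripts under 500 nt and 0.28 for the 789 between 500 nt and 1 kb, and it was below 0 for those over 2 kb. Of the 789, 29.7% were higher in DKO, and of the 101, 41.6%. Within the complex, 13 of the 21 subunits under 1 kb rose, with a median log2 fold change of 0.38, against 6 of the 16 longer ones, with a median of 0.22 (Ndufa4l2 left out of both). Across the 37 subunits without Ndufa4l2, Spearman's rho between log2 fold change and length was -0.40, given as a description because the genes were measured in the same 8 libraries. With an offset for length and GC content fitted in each library, 4 subunits were higher (6.67% of all genes), none was lower, and the median was 0.07 against -0.09 over all genes. Those 4 were Ndufv3 (log2 fold change 0.39, adjusted p = 0.0257 in edgeR's quasi-likelihood test), Ndufs4 (0.39, 0.0298), Ndufc1 (0.37, 0.0345) and Ndufa4l2 (2.21, 0.0420). With length corrected alone, Ndufs4 and Ndufc1 did not pass in the same test (0.29 and 0.26, adjusted p = 0.0787 and 0.0798). With a block for replicate number added to the length and GC correction, 0 subunits passed as higher. The change common to short genes and a change particular to complex I cannot be told apart in the values before correction.

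**Figure D1:**
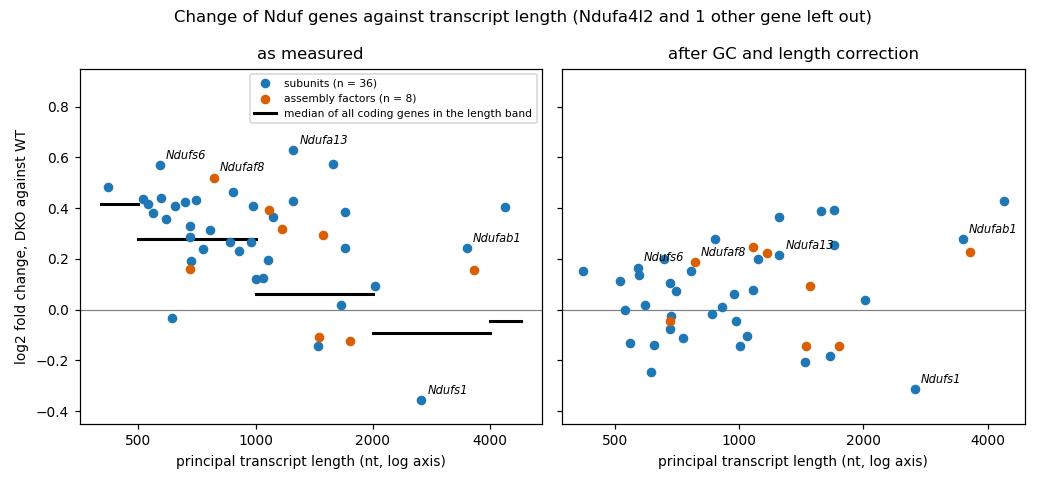
Each point is an Nduf gene (36 subunits and 8 assembly factors), placed by the length of its principal transcript (log axis, nt) and its log2 fold change between DKO and WT, before (left) and after (right) correction for GC content and length. Bars on the left mark the median of all coding genes in each length band, from 0.42 under 500 nt to -0.05 over 4000 nt, and most subunits lie near or above the bar of their band.

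The promoters of the members that rose were looked at for motifs of factors known from respiratory genes. RefSeq windows of 300 bases, from 250 before to 50 after the gene start, were found for 40 of the 46 genes. The YY1 core AAGATGGCG, searched on both strands, stood in 5 of the 18 windows of members that rose and in 1 of the 22 windows of members that did not pass. It stood in 3.3% of 10963 tested coding genes with a window. The letters hold an ATG, and each of the matches lay between 11 and 36 bases into the transcript, on the sense strand. Of the 5 members that rose, Ndufc1 and Ndufs4 kept their call after the length and GC correction, while Ndufs6, Ndufaf8 and Ndufs7 did not. Stretches around the matches are shown with the motif in capitals, first for the 5 members that rose in falling order of log2 fold change, and then for Ndufa9, which did not pass (log2 fold change -0.14).
Ndufs6: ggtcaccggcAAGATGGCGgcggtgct
Ndufaf8: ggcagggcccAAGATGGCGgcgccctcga
Ndufc1: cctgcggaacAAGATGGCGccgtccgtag
Ndufs7: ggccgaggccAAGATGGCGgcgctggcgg
Ndufs4: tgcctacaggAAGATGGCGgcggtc
Ndufa9: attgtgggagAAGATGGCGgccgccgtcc
In GRCm38.p6 the stretches are chr13:73328433-73328459 (minus strand), chr11:120098934-120098962 (plus), chr3:51408915-51408943 (minus), chr10:80249463-80249491 (plus), chr13:114388045-114388069 (minus) and chr6:126849097-126849125 (minus).

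The palindromic, GC-rich motif of NRF1 was found in 9 of the 40 windows (22.5%), and in 10.7% of the 10963 tested genes. It was present in 5 of 18 windows of members that rose and 4 of 22 of those that did not pass. The ETS motif CCGGAAG was in 15.0% of members and 18.7% of tested genes, and the SP1 motif GGGCGGGG in 22.5% and 36.1%. The ERR-alpha motif TCAAGGTCA was in none of the 40 windows and in 0.319% of tested genes. Matches are descriptions of these windows only, and binding was not measured. The windows of the 2 members with the smallest p are printed whole from RefSeq, to show how differently they are built: the first, Ndufa13 (chr8:69901971-69902270, minus strand), has an SP1 motif on each strand, and the second, Ndufs6 (chr13:73328433-73328732, minus strand), an NRF1 motif read on the opposite strand and the YY1 motif, all in capitals.
Ndufa13: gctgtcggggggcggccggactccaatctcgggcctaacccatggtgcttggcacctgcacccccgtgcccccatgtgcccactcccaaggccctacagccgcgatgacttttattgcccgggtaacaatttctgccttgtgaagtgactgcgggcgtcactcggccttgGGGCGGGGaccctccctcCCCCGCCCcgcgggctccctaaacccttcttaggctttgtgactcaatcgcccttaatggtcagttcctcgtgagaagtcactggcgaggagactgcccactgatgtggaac
Ndufs6: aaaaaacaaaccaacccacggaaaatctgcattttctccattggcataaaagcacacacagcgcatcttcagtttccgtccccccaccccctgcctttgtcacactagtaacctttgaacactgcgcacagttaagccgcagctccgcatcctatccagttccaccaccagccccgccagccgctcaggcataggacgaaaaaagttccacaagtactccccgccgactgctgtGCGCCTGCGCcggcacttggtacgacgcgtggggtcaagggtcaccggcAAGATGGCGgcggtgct

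The tip of the matrix arm, where NADH is oxidised (N module), held rises as well as the single fall. Of its 8 genes, 5 were higher and 1 was lower. Ndufs6, a zinc-binding accessory subunit added late in assembly, was read at 7383, 7614, 8624 and 7066 normalised counts in the WT libraries and at 10707, 12293, 11227 and 11342 in the DKO libraries. The groups did not overlap, and the log2 fold change was 0.57 (SE 0.08, adjusted p = 0.00349). After the correction for length and GC content it was 0.17 (adjusted p = 0.2), so the call was not kept. Ndufv3, the small accessory subunit on the NADH-binding flavoprotein, had 6661, 6206, 7881 and 6539 normalised counts in WT and 9456, 10009, 9849 and 11286 in DKO. The DKO values all lay above the WT values (log2 fold change 0.57, SE 0.10, adjusted p = 0.00523), and this rise kept its call after the correction.

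Ndufa2, a thioredoxin-fold accessory subunit next to Ndufs1 in the matrix arm, was at 10068, 10436, 11360 and 9513 in WT and at 13784, 14231, 14632 and 13483 in DKO, in normalised counts. The 2 groups were apart, with a log2 fold change of 0.44 (SE 0.08, adjusted p = 0.00575). After the length and GC correction it was 0.14 and did not pass (adjusted p = 0.271). Ndufs4, whose loss in mice causes a Leigh-like encephalopathy, rose from 3932 ± 264 to 5130 ± 564 (log2 fold change 0.38, SE 0.10, adjusted p = 0.021). It kept its call after the length and GC correction, but not with length corrected alone (0.29, adjusted p = 0.0787). Ndufa12 also rose, with its groups overlapping (0.36, SE 0.11, adjusted p = 0.0365). Its corrected log2 fold change was 0.20 and did not pass (adjusted p = 0.235).

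Ndufs1, the largest core subunit and the carrier of several iron-sulfur clusters of the N module, was the only subunit to fall. Its normalised counts were 5962, 5420, 5472 and 6319 in WT and 4025, 4747, 4787 and 4549 in DKO. All 4 DKO libraries were below all 4 WT libraries, and the log2 fold change was -0.36 (SE 0.09, adjusted p = 0.0199). After the length and GC correction the log2 fold change was -0.31 and did not pass (adjusted p = 0.0846). Without WT replicate 1 or WT replicate 4 it did not pass either (adjusted p = 0.060 and 0.059). The other core subunits of the module did not pass: Ndufv2 went from 13383 ± 987 to 15855 ± 1528 and Ndufv1, which binds NADH and the flavin, from 7997 ± 404 to 8086 ± 291. The log2 fold changes were 0.24 (adjusted p = 0.0873) and 0.02 (adjusted p = 0.896).

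In the ubiquinone-binding part of the matrix arm (Q module), 4 of 8 genes rose and none passed as lower. The core subunit Ndufs7, which holds the last iron-sulfur cluster before ubiquinone, was at 11521 ± 743 normalised counts in WT and 15290 ± 1807 in DKO (log2 fold change 0.41, SE 0.10, adjusted p = 0.0187). With the length and GC correction its log2 fold change was -0.04, so its direction was lost as well as its call. The accessory subunits Ndufa5, Ndufa6 and Ndufa7 rose by 0.46, 0.36 and 0.41 on the log2 scale. After the correction their log2 fold changes were 0.28, 0.018 and -0.0025, and none of these passed. The core subunits Ndufs3 and Ndufs8 did not pass, each with a log2 fold change of 0.12 and with adjusted p of 0.232 and 0.397.

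The proximal membrane arm, which joins the matrix arm to the membrane, had 6 risers among 9 genes and none that passed as lower. Ndufa13, also named GRIM-19, had the smallest p of all members. It was read at 7152, 7747, 8800 and 7438 normalised counts in WT and at 11189, 12048, 12393 and 12574 in DKO. The groups were far apart, with a log2 fold change of 0.63 (SE 0.08, adjusted p = 0.00271). After the correction for length and GC content the log2 fold change was 0.22 (adjusted p = 0.148). With length corrected alone it was 0.46 and passed (adjusted p = 0.0117). With GC content corrected alone it was 0.27 and did not pass (adjusted p = 0.157). Of the 1251 exon bases of Ndufa13, 375 are shared with Tssk6 on the opposite strand, which was at 86.1 normalised counts in WT and 118 in DKO. Whether strand was used in counting is not given in the sources used here, and Tssk6 was counted at a low level beside Ndufa13.

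Ndufa1, an X-linked accessory subunit needed for assembly of the arm, was at 4003, 3968, 4451 and 4126 in WT and at 5181, 6178, 5941 and 5819 in DKO (normalised counts). The groups did not overlap (log2 fold change 0.48, SE 0.08, adjusted p = 0.00531). After the length and GC correction the log2 fold change was 0.15 and did not pass (adjusted p = 0.27). Ndufc1, a small single-pass membrane subunit, was at 9075, 8747, 10108 and 9073 in WT and at 11068, 12789, 12637 and 13249 in DKO. It too was higher in every DKO library (0.43, SE 0.08, adjusted p = 0.00869), and it kept its call after the correction. With length corrected alone Ndufc1 did not pass (0.26, adjusted p = 0.0798). Ndufa3, Ndufa11 and Ndufs5 rose by 0.44, 0.38 and 0.33 on the log2 scale, while Ndufa8, Ndufa10 and Ndufc2 did not pass. After the correction the values for Ndufa3, Ndufa11 and Ndufs5 were 0.11, -0.13 and 0.11, none of which passed, so the direction of Ndufa11 turned.

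In the distal membrane arm 4 of 11 genes rose, Ndufb2, Ndufb6, Ndufb7 and Ndufb9, by 0.40 to 0.43 on the log2 scale. After the correction none of these 4 passed, and the values were 0.43, 0.20, -0.14 and 0.07, so the direction of Ndufb7 turned. The other 7 had log2 fold changes from 0.19 to 0.31 and did not pass. Among these was the X-linked Ndufb11, with 7048, 7521, 8130 and 7537 normalised counts in WT and 8077, 9268, 8538 and 9615 in DKO. Its groups overlapped, and the log2 fold change was 0.23 (SE 0.08, adjusted p = 0.0725). Ndufab1, the mitochondrial acyl carrier protein, which also serves fatty acid synthesis, was at 13172 ± 689 in WT and 15574 ± 1917 in DKO (0.24, adjusted p = 0.109). Of the exon bases of Ndufb6, 39.0% are shared with Smim27 on the opposite strand, which was at 966 and 959 normalised counts in WT and DKO.

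Sex was not balanced between the groups, which touches the X-linked members. Xist, the RNA of the inactive X chromosome, was at 0 to 30.1 normalised counts in the WT libraries and at 18029 to 27043 in DKO replicates 1, 2 and 4, but at 62.3 in DKO replicate 3. Ddx3y, on the Y chromosome, was at 2911 to 3354 in WT and 2516 in DKO replicate 3, and at 41.0 or less in the other DKO libraries. In DKO replicate 3, Ndufa1 and Ndufb11 were at 5941 and 8538 normalised counts. The part of sex was not tested for these 2 genes or for the other members, since sex nearly follows genotype here.

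**Figure D2:**
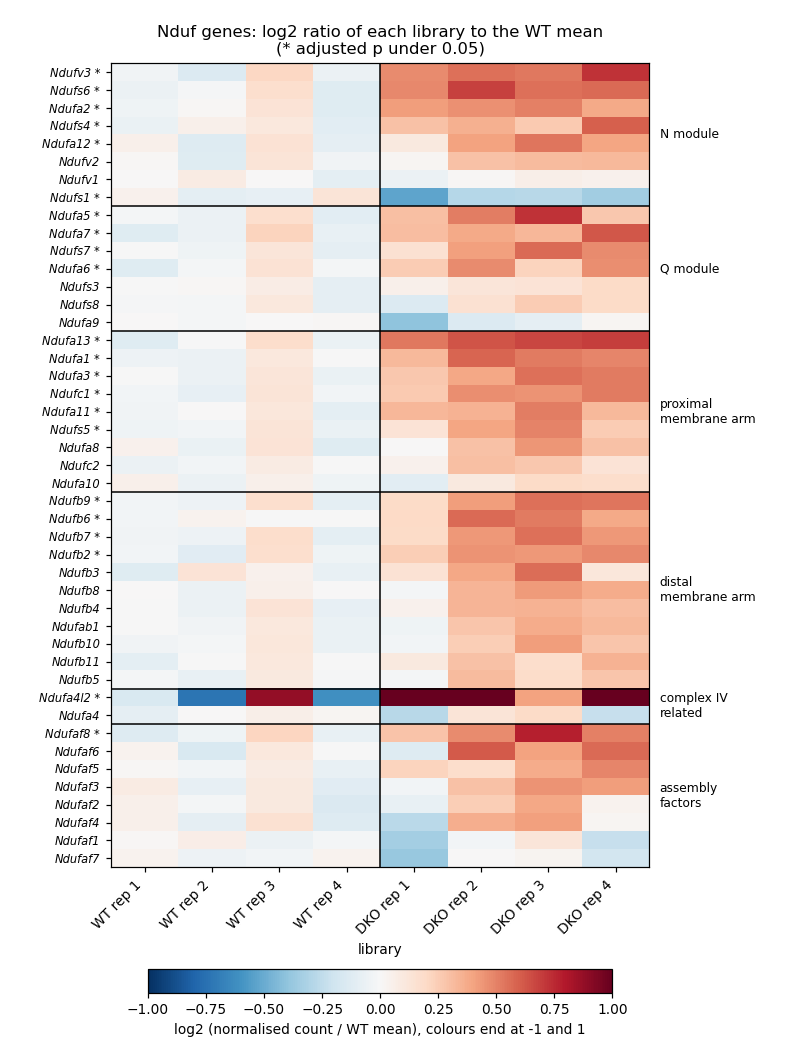
Rows are 45 of the Nduf genes, grouped by their place in the complex, and columns the 8 libraries. Colour gives the log2 ratio of a library's normalised count to the WT mean, with colours ending at -1 and 1, and asterisks mark adjusted p under 0.05. Most rows are red in DKO replicates 2 to 4 and paler in DKO replicate 1, Ndufs1 is blue in all 4 DKO libraries, and Ndufa4l2 goes past the end of the scale.

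Sorted by role, 18 of the 29 accessory subunits rose and none passed as lower, with a median log2 fold change of 0.38. Of the 7 nuclear core subunits, 1 rose and 1 fell, with a median of 0.12. The core subunits also have longer transcripts, with a median of 1623 nt against 763 nt for the accessory ones. After the length and GC correction the medians were 0.11 and -0.12, with 3 accessory subunits and no core subunit passing as higher. No test of the difference between these lists was made.

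Ndufa4 and Ndufa4l2 bear complex I names, although NDUFA4 is now placed with complex IV and NDUFA4L2 is a related protein induced under low oxygen that lowers complex I activity. Ndufa4 was among the most abundant members, at 18973 ± 818 normalised counts in WT and 18550 ± 3070 in DKO (log2 fold change -0.03, adjusted p = 0.869). Ndufa4l2 was the least abundant, with 152, 102, 310 and 110 normalised counts in WT and 658, 829, 222 and 2524 in DKO. DKO replicate 3 lay within the WT range and DKO replicate 4 far above all others, so the groups overlapped. The log2 fold change was 2.65 (SE 0.68, adjusted p = 0.0240). It dropped to 1.76 and did not pass when DKO replicate 4 was left out (adjusted p = 0.0533), and without WT replicate 1, 2 or 4 the adjusted p was 0.0734 to 0.0780.

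Markers of mesenchymal cells moved in the same direction as Ndufa4l2. All 5 markers on the list (Col1a1, Col1a2, Col3a1, Dcn and Pdgfra) rose, and their sum was 1460 to 5065 normalised counts in WT and 11412 to 41466 in DKO. In DKO the order of the libraries differed, since the sum was highest in replicate 1 (41466) and Ndufa4l2 in replicate 4. The part of these cells in the rise of Ndufa4l2 was not tested. In a bulk sample, more cells of a type and more RNA per cell cannot be told apart.

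**Figure D3:**
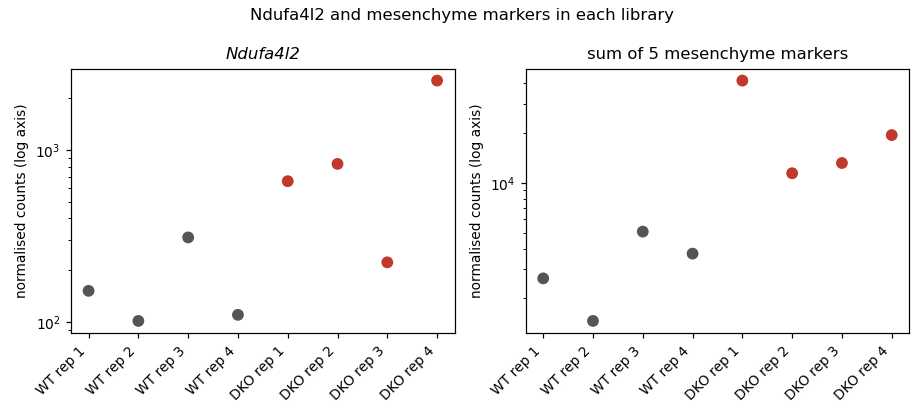
Normalised counts (log axes) of Ndufa4l2 (left) and of the sum of 5 mesenchyme markers (right) in each library, WT in grey and DKO in red. Ndufa4l2 runs from 102 to 310 in WT and from 222 to 2524 in DKO, and the marker sum is higher in every DKO library than in any WT library.

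Among the assembly factors, Ndufaf8, which binds NDUFAF5 and is needed for its stability, was the single one to rise. It was read at 2434, 2595, 3101 and 2541 normalised counts in WT and at 3244, 3700, 4583 and 3780 in DKO. All DKO values were above all WT values (log2 fold change 0.52, SE 0.12, adjusted p = 0.0166), though with the length and GC correction the call was not kept (0.19, adjusted p = 0.294), nor was it without WT replicate 1, 2 or 4 (adjusted p of 0.0524 to 0.0612). Its partner Ndufaf5, which modifies Ndufs7 in early assembly, was at 888, 867, 935 and 836 in WT and at 1027, 997, 1140 and 1234 in DKO. These groups did not overlap either, but the change of 0.32 (SE 0.11) did not pass the test over all genes (adjusted p = 0.0735).

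Ndufaf6 had 1965, 1728, 2064 and 1908 normalised counts in WT and 1750, 2933, 2533 and 2833 in DKO (0.39, SE 0.15, adjusted p = 0.0997). Ndufaf3, which with NDUFAF4 helps to form the Q module, had 1788, 1590, 1801 and 1561 in WT and 1656, 2060, 2296 and 2249 in DKO (0.29, SE 0.12, adjusted p = 0.109). In both genes DKO replicate 1 lay within the WT range and the other 3 DKO libraries above it. Ndufaf4 was at 5039, 4565, 5404 and 4436 in WT and at 4039, 6249, 6466 and 4936 in DKO (0.16, SE 0.15, adjusted p = 0.484). Ndufaf2, which holds the place of Ndufa12 during assembly of the N module, was at 2979, 2844, 3087 and 2606 in WT and at 2737, 3416, 3766 and 2956 in DKO (0.16, SE 0.11, adjusted p = 0.338). For both, the DKO libraries were more scattered than the WT libraries.

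Ndufaf7, a methyltransferase that acts early in assembly of the matrix arm, was at 2956, 2784, 2830 and 2954 in WT and at 2214, 2896, 2930 and 2533 in DKO (-0.12, SE 0.10, adjusted p = 0.413). Ndufaf1, a factor of the membrane arm, was at 2330, 2427, 2225 and 2287 in WT and at 1831, 2277, 2517 and 1978 in DKO (-0.11, SE 0.11, adjusted p = 0.521). In these 2 genes the lowest value was again in DKO replicate 1.

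Subunit transcripts were more abundant than those of the assembly factors in every library. On the log2(CPM + 1) scale, the median of the subunits exceeded that of the assembly factors by 1.81, 1.76, 1.94 and 1.75 in the WT libraries and by 2.24, 1.92, 2.01 and 2.08 in the DKO libraries. The mean gap was 1.82 ± 0.09 in WT and 2.06 ± 0.13 in DKO (SD, n = 4), 0.24 wider in DKO, with WT replicate 3 above DKO replicate 2. No p is given for this gap, which rests on lists chosen with the results known. After the length and GC correction the order of the median log2 fold changes turned, to 0.07 for the subunits and 0.14 for the assembly factors. Per kilobase of principal transcript, the assembly factors ran from 756 (Ndufaf5) to 4247 (Ndufaf2) normalised counts in WT, and the core subunits from 2177 (Ndufs1) to 11720 (Ndufs7).

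DKO replicate 1 stood apart from the other DKO libraries in most members. The median of the subunits, as the log2 ratio to the WT mean, was 0.14 there and 0.34 to 0.42 in DKO replicates 2 to 4. For the assembly factors it was -0.10 there and 0.23 to 0.39 in the others. The same library had the highest mesenchyme sum and the lowest sum of 4 progenitor markers (12074, against 15870 to 21293 in the other DKO libraries and 31635 to 37499 in WT). The part of these cells in the difference was not tested.

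**Figure D4:**
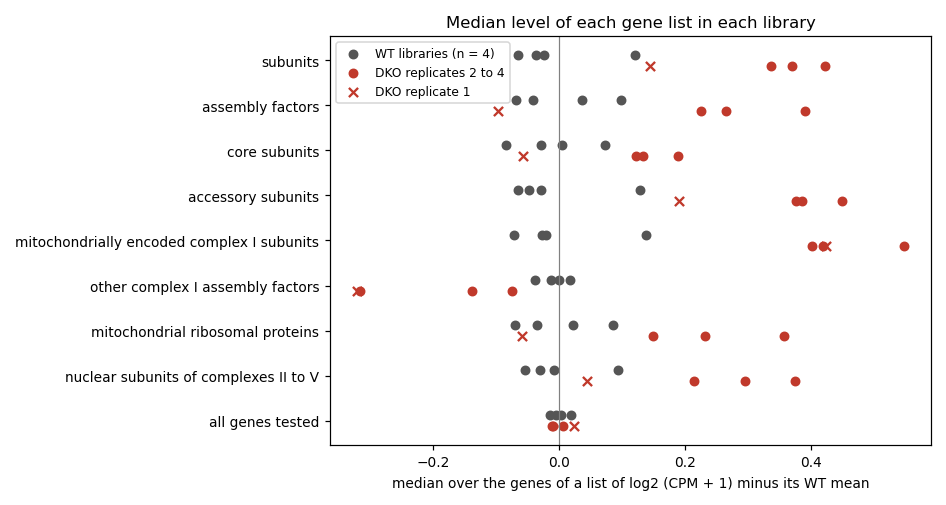
For each gene list and library, the point gives the median over the list's genes of log2(CPM + 1) minus its WT mean. WT libraries are grey, DKO libraries red and DKO replicate 1 a cross. The subunits lie at 0.14 to 0.42 in DKO, the assembly factors at -0.10 to 0.39, the other complex I assembly factors below 0 in every DKO library, and all genes tested within 0.03 of 0.

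Complex I assembly factors with other names were lower or did not pass. Of 12 such genes, none passed as higher and 4 were lower: Acad9, an acyl-CoA dehydrogenase that works in complex I assembly (log2 fold change -0.38, SE 0.07, adjusted p = 0.00699), Aifm1, needed for import of complex I parts (-0.41, SE 0.08, 0.00805), Tmem186 (-0.43, SE 0.13, 0.0428) and Foxred1 (-0.34, SE 0.11, 0.0489). For each of the 4, all DKO libraries were below all WT libraries. Of all genes tested, 10.8% passed as lower, and 14.6% had all DKO libraries below all WT libraries. Acad9 was at 3812, 3943, 3795 and 3955 normalised counts in WT and at 2886, 3025, 3139 and 2885 in DKO. The list's median log2 fold change was -0.19.

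The complex I subunits encoded in mitochondrial DNA were mostly higher as well. Of 7, mt-Nd1, mt-Nd2, mt-Nd4, mt-Nd5 and mt-Nd6 rose, by 0.56, 0.78, 0.46, 0.52 and 0.50 on the log2 scale, and the list's median was 0.50. Of all genes tested, 10.7% passed as higher. mt-Nd2 was at 27991, 27974, 35206 and 27120 normalised counts in WT and at 51568, 51412, 48830 and 51005 in DKO. After the length and GC correction mt-Nd2 and mt-Nd5 still passed as higher (0.64 and 0.53), and mt-Nd1, mt-Nd4 and mt-Nd6 did not. mt-Nd1 also lost its call when any WT library or DKO replicate 2 was left out. mt-Nd3 went the other way, from 251, 313, 343 and 294 in WT to 31.5, 38.4, 24.4 and 21.9 in DKO (-3.36, SE 0.29, adjusted p = 0.000346). Its counts were far below those of the other mitochondrial genes except mt-Nd4l (70.2 to 145 in WT, 57.5 to 124 in DKO), which did not pass (adjusted p = 0.82). Reads of mitochondrial genes can also match nuclear copies of mitochondrial DNA, so the levels of the short mitochondrial genes are uncertain.

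Subunits of the other respiratory complexes were among the genes that rose. Of the 38 nuclear subunits of complexes II to V on the list, 15 were higher and 1 was lower (10.7% and 10.8% of all genes tested). The median log2 fold change was 0.22. The risers with the smallest p were Uqcr11 and Uqcrq of complex III (0.53 and 0.60), Cox5b and Cox4i1 of complex IV (0.46 and 0.35) and Atp5k and Atp5j of ATP synthase (0.47 and 0.34). The one that fell was Sdha, the flavoprotein of complex II (-0.58, SE 0.09, adjusted p = 0.00395). Of 78 mitochondrial ribosomal proteins, 15 were higher and 4 lower, with a median of 0.17. The clearest were Mrpl52 and Mrpl30, which rose by 0.63 and 0.55 on the log2 scale, and Mrpl50 and Mrps2, which fell by 0.38 and 0.37. Over these lists, the mitochondrial genes and the other assembly factors together, 35 genes were higher and 10 lower, and after the length and GC correction 4 and 13. Of all genes tested, 10.7% were higher and 10.8% lower, and after the correction 6.67% were higher. The share of all genes lower after the correction is not given here, and their median log2 fold change was then -0.09. The 13 lower genes are therefore not read as a change of these lists. No test of the difference between these lists was made.

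Expression of the targeted genes and of other cell types bears on all of these values. Vps13a fell in DKO (log2 fold change -1.29, adjusted p = 0.00247), while Vps13c did not pass (0.49, adjusted p = 0.182) and so does not check the labels. Hepatoblast markers were high in all libraries, with a sum of 460902 to 644380 normalised counts in WT and 148452 to 553418 in DKO. None of the 6 passed, but all 6 log2 fold changes were negative. Alb, Apoa1 and Ttr (-1.05, -1.02 and -0.90) were lower in every DKO library than in any WT library, as were 14.6% of all genes. The groups overlapped in Afp, Apoa2 and Hnf4a. The sum of 5 neutrophil markers was 100888 to 131350 in WT and 5261 to 44447 in DKO, that of 6 macrophage markers 2372 to 3231 and 494 to 1588, and that of 4 endothelial markers 2174 to 2610 and 1039 to 1597. Of these markers, 2, 1 and 1 passed as lower and none as higher. In WT, Mpo (mean 108147), Csf1r (2196) and Pecam1 (1673) made up the largest part of the 3 sums. S100a8, S100a9 and C1qa had log2 fold changes of 1.45, 0.16 and 0.78 and did not pass. Sums of the 6 erythroid markers (31030 to 37097 and 29198 to 44791) and of the 4 megakaryocyte markers (44161 to 49986 and 33929 to 103138) overlapped between the groups. The part of these cells in the changes of the Nduf genes was not tested.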

How the data were processed

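RNAseq of S0 cells from fetal livers, in 4 WT and 4 DKO libraries, was analysed, grouped by the sample labels. Per the submitters' processing notes and the study's methods, the authors trimmed reads with fastp 0.21.0, mapped them to mm10 with HISAT2 2.2.1, removed poorly mapped alignments and counted genes with StringTie 1.3.3b, and the deposited values are whole-number counts. These counts were not normalised or pooled. Of 52636 identifiers, 52403 matched GENCODE vM21 without and 49035 with the version. In R 4.3.3, edgeR 4.0.16 was run with filterByExpr, TMM and the robust quasi-likelihood test, adjusted by Benjamini-Hochberg. No covariate was used, and all 46 members passed the filter. Normalised counts are counts divided by effective library size and brought to the mean size. SE is the log2 fold change over the root of F. GC and length of the principal transcript were corrected with loess offsets (span 0.5). The script was tested on simulated data. No pair of libraries in a group agreed within sampling noise. Alternatives were other scalings and filters, DESeq2 1.42.0, a replicate block and leaving out each library. 1 member is included in the counts and medians but is not reported by name here. Members and lists were chosen with earlier results of these data known. Named in full are up to 6 members with the smallest p per direction, the assembly factors and the X-linked subunits. Other members are given by mean, and up to 2 genes per direction are named in other lists, beside those where a count is 5 or fewer or a small list is spelled out. In 16 members exons overlap another coding gene, and counts may be shared there. For the 19 subunits whose groups did not overlap, an exact permutation test on log2 CPM, two-sided, gave 0.0286, the smallest p it can give with 70 arrangements.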

Additional observations from a re-analysis of the deposited data

Results flagged for a closer look

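In 3 of the 92 groups of 4 libraries examined (46 genes in each genotype), a library stood apart from the other 3 by Dixon's criterion. By chance about 1 group in 20 would do so. Ndufa11 was at 8441 normalised counts in DKO replicate 3, against 7419 to 7551 in the other DKO libraries. Ndufb4 was at 6154 in DKO replicate 1, against 7386 to 7628, and Ndufv2 at 13576 in DKO replicate 1, against 16382 to 16770. The last 2 are in the library whose subunit median was the lowest of the DKO group.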

How the results depend on the processing

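Over all genes 3745 passed, and 1499 with a log2 fold change beyond 1 as well. Under the second rule, 1 subunit was higher, 0 subunits were lower, 0 assembly factors were higher, and 0 of the other respiratory genes were higher and 1 lower. Of those other genes (the lists outside the 46), 35 passed as higher and 10 as lower. With upper-quartile scaling, which moved the median of all genes to 0.14, 31 subunits, 4 assembly factors and 53 other genes were higher, 5 other genes were lower, and the subunit median was 0.45. With no low-count filter, which tested 30390 genes with a median of 0.13, 22 other genes were higher. DESeq2, with 30070 genes and a median of 0.14, called 21 subunits and 2 assembly factors higher. GC and length correction left 4 subunits, 0 assembly factors and 4 other genes higher, 0 subunits lower and a subunit median of 0.068. Chosen after seeing the data, the same with the longest transcript gave 6 subunits, 0 assembly factors and 5 other genes higher, 0 subunits lower and a subunit median of 0.14, length alone gave 3, 0, 4, 0 and 0.066, and GC alone 6, 0, 7, 0 and 0.23. The medians of all genes in these fits were -0.081, -0.078 and -0.066. For them, for DESeq2 and without the low-count filter, the share of all genes called is not given here. Those counts cannot be set against the 10.7% of the main fit.

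Same-numbered libraries did not deviate together (correlations -0.16, 0.07, -0.07 and 0.03), so the numbers do not pair the samples. With a replicate block 2109 genes passed, with 14 subunits higher, 0 lower and 5 other genes lower. The block with GC and length correction gave 1279 genes, 0 subunits higher, 0 lower, 0 assembly factors higher, 2 other genes higher and 2 lower, and a subunit median of 0.065.

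Leaving out 1 library at a time, 1756 to 3927 genes passed, 10 to 29 subunits were higher and 0 to 1 lower, 0 to 3 assembly factors were higher, and of the other genes 14 to 61 were higher and 4 to 9 lower. The subunit median was 0.29 to 0.39. Counts of calls fell most without WT replicate 1, 2 or 4 (10 subunits higher for each). The cause was not tested.

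GC and length correction turned the direction of 12 named members, 4 of which had passed as higher (Ndufa7, Ndufa11, Ndufb7 and Ndufs7). Length alone turned 8 and GC alone 4, none of which had passed. For Ndufa7, Ndufa11 and Ndufb7 the corrected log2 fold changes were -0.0025, -0.13 and -0.14, and for Ndufa8, Ndufb8, Ndufb10 and Ndufc2 -0.016, -0.075, -0.11 and -0.027. With length alone Ndufb5, Ndufb10 and Ndufc2 were at -0.0039, -0.034 and -0.095, and with GC alone Ndufa10 was at -0.010. The core subunits, assembly factors and other genes tried under every alternative turned as follows, in log2 fold change. With GC and length correction Ndufaf2 -0.045, Ndufs3 -0.11, Ndufs7 -0.044, Ndufs8 -0.14, Ndufv1 -0.18. With the block with GC and length correction Ndufaf2 -0.052, Ndufs3 -0.10, Ndufs7 -0.054, Ndufs8 -0.15, Ndufv1 -0.18. With length alone Ndufaf2 -0.13, Ndufb11 -0.00070, Ndufs3 -0.080, Ndufs8 -0.088, Ndufv1 -0.086. With the longest transcript Ndufb11 -0.0046, Ndufs3 -0.12, Ndufs7 -0.062, Ndufs8 -0.16, Ndufv1 -0.21. With no low-count filter Ndufv1 -0.0089. With GC alone Ndufs3 -0.0023, Ndufs8 -0.013, Ndufv1 -0.19. With upper-quartile scaling Ndufa4 0.074. With TMM on coding genes without histone and mitochondrial genes Ndufa4 0.0057. Leaving out 1 library, the log2 fold change ran from -0.023 to 0.048 for Ndufv1, from -0.11 to 0.042 for Ndufa4 and from -0.35 to 0.11 for mt-Nd4l. At this depth counting error was small, and the spread between 4 libraries limits what passed.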
